A study of Mus musculus with 7 samples.

Results

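The regions described here are stretches of open chromatin that several, but not all, of 7 ATAC-seq libraries called at the end of a single protein-coding gene. Peaks of the 7 deposited lists that overlapped by at least 1 bp on chromosomes 1 to 19 were merged, which gave 24734 regions. Kept were regions that 2 to 6 libraries called and that lay within 1 kb of an end of the span of exactly 1 protein-coding gene in RefSeq GRCm38. The rule left 1931 regions, 7.81% of all merged regions and 16.7% of the 11536 shared regions, which are those called in 2 to 6 libraries. They belonged to 1910 genes, 9.24% of the 20661 protein-coding genes on these chromosomes. The regions were thus chosen by whether a library called a peak and by gene position, so their number of calling libraries is a description and supports nothing.

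ATAC-seq uses a transposase to insert sequencing adapters into accessible DNA. All 7 libraries came from CD15+ neural progenitor cells (NPCs) sorted from embryonic brain of CD-1 mice, at E14.5 by the titles and embryonic day 14 by the age label. Of these, 3 libraries were wild-type and 4 were labelled L3mbtl3 -/-, called knockout below. The labels do not say how the allele was made, whether embryos were pooled or whether the libraries of a genotype came from separate litters, and a protocol line common to all libraries also mentions heterozygous cells. L3mbtl3, the targeted gene, had no region of any kind at either end in any library, so its ends offer no check of the genotype labels, and peaks inside the gene were not examined.

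Protein-coding genes start at promoters, where nucleosomes are displaced so that transcription factors and RNA polymerase can bind, and promoters rich in CpG are often open in many cell types. L3mbtl3 encodes a protein with MBT domains, which bind methylated lysines, and belongs to the wider family of Polycomb-related repressors. Radial glia are the progenitors of the developing cortex, and they produce neurons directly or through intermediate progenitors.

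The regions differ in genotype pattern, in gene class and in promoter sequence, and 6 promoters show that range. Each line gives the 250 bases before a RefSeq transcription start, 5′ to 3′ on the gene's strand (GRCm38.p6). Capitals mark CCAAT on either strand (CCAAT or ATTGG), the motif whose share gained most percentage points from regions called in 1 library to those called in all 7, among those searched. Ankrd42 and Tmem243 were called in every knockout library and no wild-type library. Atp5b and Numb stand for regions called in 5 libraries of both genotypes, and Zfp120 and Syt1 for those of the highest fold enrichment. The 6 were picked after their values were seen.

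Ankrd42, chr7:92637143-92637392 (- strand): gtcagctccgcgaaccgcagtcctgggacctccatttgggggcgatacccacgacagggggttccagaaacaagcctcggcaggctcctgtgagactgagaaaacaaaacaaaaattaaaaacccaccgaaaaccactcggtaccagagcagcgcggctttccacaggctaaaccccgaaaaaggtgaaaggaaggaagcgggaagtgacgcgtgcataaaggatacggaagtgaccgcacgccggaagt
Tmem243, chr5:9100487-9100736 (+ strand): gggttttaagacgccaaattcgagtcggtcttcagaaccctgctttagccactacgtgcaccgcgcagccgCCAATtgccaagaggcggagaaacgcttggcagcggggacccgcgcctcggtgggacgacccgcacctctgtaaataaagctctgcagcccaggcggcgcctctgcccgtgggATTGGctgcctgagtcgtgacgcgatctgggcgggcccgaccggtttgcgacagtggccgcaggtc
Atp5b, chr10:128083057-128083306 (+ strand): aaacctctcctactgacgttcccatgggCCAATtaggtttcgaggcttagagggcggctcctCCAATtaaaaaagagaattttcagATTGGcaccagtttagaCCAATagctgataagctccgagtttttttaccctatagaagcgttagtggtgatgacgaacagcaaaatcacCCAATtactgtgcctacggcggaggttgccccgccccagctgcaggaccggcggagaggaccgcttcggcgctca
Numb, chr12:83921935-83922184 (- strand): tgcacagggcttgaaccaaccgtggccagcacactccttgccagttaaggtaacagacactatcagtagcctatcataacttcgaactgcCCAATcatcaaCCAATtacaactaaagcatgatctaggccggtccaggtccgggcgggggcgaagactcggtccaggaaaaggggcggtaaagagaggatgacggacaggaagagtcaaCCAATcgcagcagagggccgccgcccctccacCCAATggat
Zfp120, chr2:150136679-150136928 (- strand): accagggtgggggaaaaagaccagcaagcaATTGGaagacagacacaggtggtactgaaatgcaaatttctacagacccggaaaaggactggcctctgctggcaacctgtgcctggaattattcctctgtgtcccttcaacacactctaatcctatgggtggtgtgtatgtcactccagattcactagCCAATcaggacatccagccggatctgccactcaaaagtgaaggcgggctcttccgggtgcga
Syt1, chr10:109010976-109011225 (- strand): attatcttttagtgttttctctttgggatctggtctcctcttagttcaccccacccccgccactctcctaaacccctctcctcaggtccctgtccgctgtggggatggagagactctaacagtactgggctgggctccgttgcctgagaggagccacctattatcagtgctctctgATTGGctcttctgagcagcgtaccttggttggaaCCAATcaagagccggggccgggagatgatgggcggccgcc

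The Ankrd42 stretch held 0 CCAAT matches, those of Tmem243, Zfp120 and Syt1 held 2 each, that of Numb held 4 and that of Atp5b held 5. A match describes letters in the reference sequence and is not evidence that a factor bound there. The CpG ratio (observed over expected CpG) was 1 at Tmem243 and 0.946 at Ankrd42, against 0.3 at Zfp120 and 0.404 at Syt1. The called region covered 107 bases of the Ankrd42 stretch, 203 of that of Tmem243, 229 of that of Atp5b, 225 of that of Numb, 170 of that of Zfp120 and 145 of that of Syt1.

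The regions lay at gene starts far more often than at the other end of a gene. The rule did not use strand, which the RefSeq promoter table gave for the genes of 1592 regions. Of these, 1517 lay at the start (95.3%, Wilson 95% interval 94.1 to 96.2) and 75 at the far end, while 339 regions had a gene of unknown strand. Regions called in 1 library at exactly 1 gene were at the start in 93.7% of cases and those called in all 7 libraries in 94.2%, so the share differed little with the number of callers. The interval covers counting error only.

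Within the start regions, the median centre lay 79 bp upstream of the nearest listed start (−79, quartiles −158 and −25.5), 82.1% of centres lay upstream, and 83.3% lay within 250 bp of it. The gene end itself was covered in 1182 of the 1931 regions (61.2%), and 1508 regions (78.1%) overlapped the gene span. Regions were short, with a median width of 235 bp and a range from 95 to 1438 bp, against a median of 248 bp in the other 9605 shared regions. In 1890 regions (97.9%) all peaks of the calling libraries had a base in common. The merging rule fixes this wherever only 2 peaks form a region, and 662 regions were called in 2 libraries. An end of a long non-coding RNA gene also lay within reach of 269 regions (13.9%). Counted over regions with exactly 1 gene within 1100 bp, 34 regions lay in the last 100 bp inside the 1 kb limit and were called in 3.41 libraries on average. The 28 regions in the 100 bp just outside it were called in 3. Lmcd1, a LIM-domain gene, was the 1 gene with 3 regions, called in 4, 3 and 2 libraries.

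**Figure D1:**
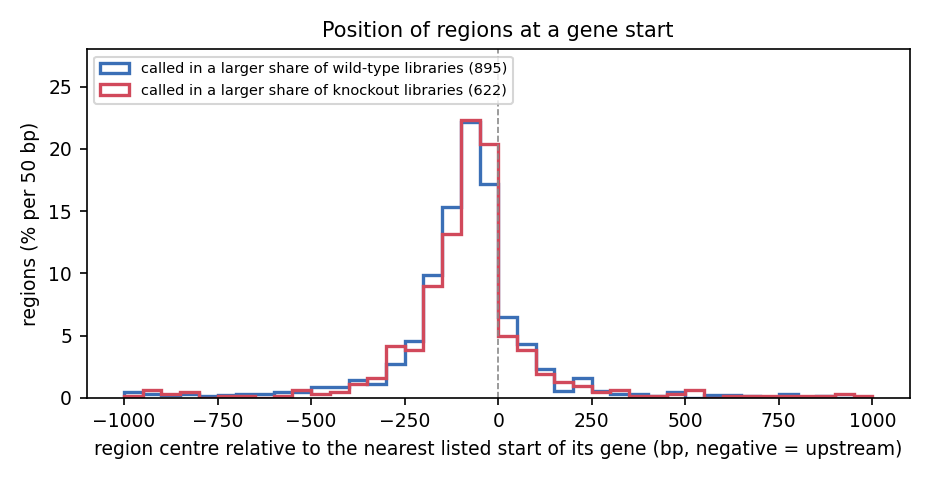
Distance of the region centre from the nearest listed start of its gene (x axis, bp, negative is upstream) against the share of regions per 50 bp (y axis, %), for the 1517 regions at a gene start, drawn apart for the 622 that more of the knockout lists held, as a share of lists, and for those that more of the wild-type lists held. Both lines peak just upstream of the start, and the median centre over all 1517 was −79 bp.

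Calling followed the number of peaks in a list more than genotype. A total of 662 regions were called in 2 libraries, 434 in 3, 313 in 4, 286 in 5 and 236 in 6. Wild-type libraries 1, 2 and 3 called 894, 1316 and 716 of the 1931 regions, and their lists held 7221, 11028 and 6202 peaks on chromosomes 1 to 19. Knockout libraries 1, 2, 3 and 4 called 1102, 719, 326 and 1651, with 9538, 6905, 3285 and 16789 peaks. The longest list called the most regions and the shortest the fewest, both in the knockout group, and the genotypes overlapped. The lists hold no read counts, so read depth is unknown, and in cells measured together a site open in more cells and one open more often in each cannot be told apart.

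List length was accounted for by relative calling, the share of the 1931 regions that a library called divided by the share of the other shared regions it called. It was 1.03, 1.01 and 1.1 in wild-type libraries 1 to 3 and 0.929, 0.826, 1.16 and 1.08 in knockout libraries 1 to 4. The mean was 1.04 ± 0.0477 (SD, n = 3) in wild-type and 0.999 ± 0.15 (SD, n = 4) in knockout, a difference of −0.0447 that is smaller than the spread among knockout libraries. Knockout libraries 1 and 2 were below every wild-type library, whereas knockout library 3 was above all of them and knockout library 4 lay among them. Without knockout library 2 the difference was 0.0104, with the opposite sign. No p is given because the regions were chosen with results of these lists known.

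With each list limited to its 3285 peaks of smallest q, the size of the shortest list, the wild-type libraries called 407, 450 and 407 regions and the knockout libraries 396, 325, 326 and 520. Relative calling was then 1.15, 1.27 and 1.2 in wild-type and 1.08, 0.864, 1.16 and 1.61 in knockout. The means were 1.21 ± 0.0603 (SD, n = 3) and 1.18 ± 0.314 (SD, n = 4), and the knockout values again lay on both sides of the wild-type range. As a share of a library's own peaks, the regions made up 12.4, 11.9 and 11.5% in wild-type and 11.6, 10.4, 9.92 and 9.85% in knockout, the lowest value being that of the longest list. The median fold enrichment over the regions a library called was 4.67 ± 0.229 (SD, n = 3) in wild-type and 4.67 ± 0.309 (SD, n = 4) in knockout. Fold enrichment is the authors' own ratio for each peak.

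**Figure D2:**
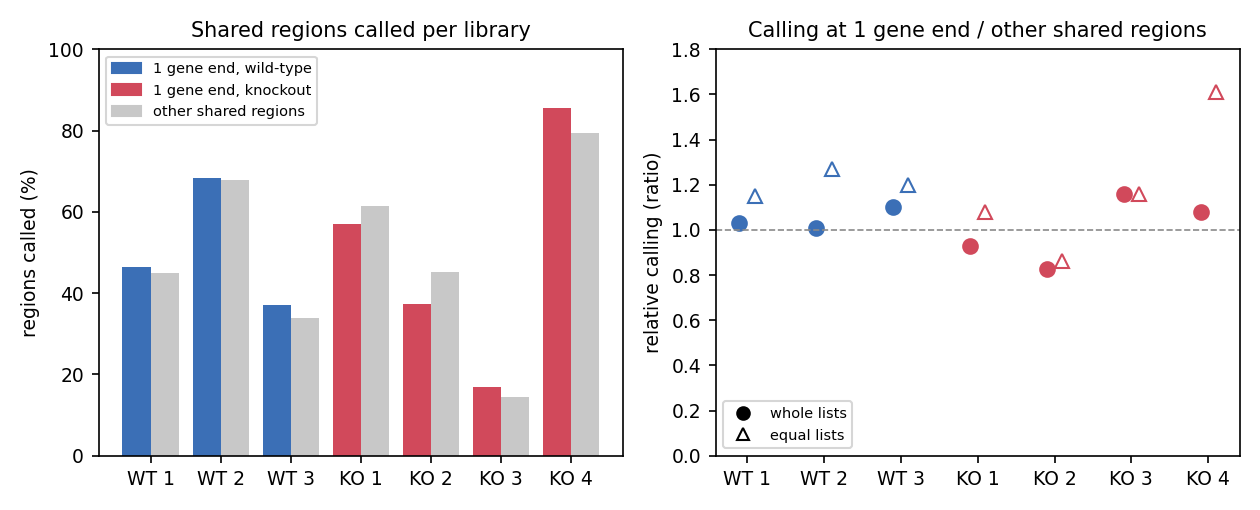
Left, share of regions called in each of the 7 libraries (y axis, %), for regions at 1 gene end (blue for wild-type, red for knockout) and for the other shared regions (grey). Right, relative calling per library (y axis, ratio, dashed line at 1), with all peaks and with lists of equal length; knockout values from 0.826 to 1.16 span the wild-type values of 1.01 to 1.1.

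A region was said to lean to knockout when a larger share of the 4 knockout libraries than of the 3 wild-type libraries called it. That held for 803 of the 1931 regions (41.6%), beside 44.9% of all 11536 shared regions and 45.6% of the 9605 others. Weighted to the same numbers of callers, the share among the others was 46.5%. By number of callers from 2 to 6, the shares at 1 gene end were 27.6, 64.3, 26.8, 72.7 and 20.8%, and among the others 29.5, 66.9, 38.2, 78.8 and 28.5%. The regions at 1 gene end were below the others at each number of callers, by the most at 4 and 6 callers. The share itself changed when a library was left out, and so did that of the others with the same numbers of callers. Without knockout library 4 it was 16.2% beside 22.3%, without knockout library 1 20.4% beside 23.6%, and without wild-type library 3 25.4% beside 28.7%. With 1 library fewer the regions are chosen anew, and the equal shares at which a region leans to neither genotype change by construction. These values therefore do not measure how far the share rests on 1 library. The share at 1 gene end stayed under that of the others without each of the 7 libraries in turn. The gap was smallest without knockout library 2 (29.5% beside 30.7%), and with equal lists the shares were 39.1% beside 43.5%. The up and down with the number of callers follows from how 3 and 4 libraries can divide. Start regions leaned to knockout in 41% of cases and the 75 far-end regions in 49.3%.

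Of the 3 commonest sets of calling libraries, the first and the second mixed the genotypes. Wild-type library 2 with knockout library 4, the longest list of each genotype, called 169 regions (8.75%) as a pair, and every library except knockout library 3, the shortest list, called 155 (8.03%). The third was knockout libraries 1 and 4, with 104 (5.39%). The same sets made up 7.78, 8.19 and 5.41% of the other shared regions.

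Complete separation by genotype was rare. Of the 434 regions called in 3 libraries, 2 had a peak in every wild-type list and in none of the knockout lists (0.461%), beside 1.20% of all regions with 3 callers. Of the 313 regions called in 4 libraries, 3 had a peak in every knockout list and in none of the wild-type lists (0.958%), beside 1.44% of all regions with 4 callers. Both shares lay near or under the background, so they are no result about regions at 1 gene end. A two-sided Fisher's exact test per region over all 24734 regions gave a smallest p of 0.0286, which is the smallest that 3 against 4 libraries allow. No region passed after Benjamini-Hochberg adjustment (smallest adjusted p = 1), while 57 regions had an unadjusted p under 0.05 in the exact test, among them these 5. Leaving out 1 library in turn gave 3 to 24 wild-type-only regions, the most without knockout library 4. It gave 5 to 26 knockout-only regions, the most without knockout library 3. With 1 library fewer, a smaller set must agree for a region to be separated.

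The 3 knockout-only regions lay at Ankrd42, Tmem243 and Plekhg1. Ankrd42 encodes an ankyrin-repeat protein, and its region at chr7:92637073-92637249 covered the start, with fold enrichments of 5.15, 5.17, 4.69 and 6.15 in knockout libraries 1 to 4. Tmem243 encodes a transmembrane protein, and its region at chr5:9100534-9100745 also covered the start, with 8.25, 4.11, 4.3 and 5.36. Plekhg1, a guanine nucleotide exchange factor, had its region 978 bp from the start end of the span, at chr10:3741229-3741387, with 4.75, 4.65, 3.54 and 4.34. The Plekhg1 region lay far from the nearest listed start of the gene (centre at −131359 bp) and overlapped no listed promoter window. No wild-type list held a peak at any of the 3. Ankrd42 and Tmem243 have the printed promoters, one without CCAAT and the other with 2 matches.

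The 2 wild-type-only regions lay at Gm4724 and Siah3. Gm4724 is a predicted gene, and its region at chr2:175703695-175703830 had fold enrichments of 5.49, 4.87 and 4.75 in wild-type libraries 1 to 3. This region lay 296 bp from the start end of the span but far from the nearest listed start (centre at −267986 bp). It overlapped no listed promoter window, so the search for similar promoters given below did not cover it. Siah3, named as a member of the SIAH ubiquitin ligase family, had its region 849 bp from the start end, at chr14:75454905-75455133, with 4.28, 4.96 and 4.7. No knockout list held a peak at either. Among lists of 3285 peaks each, Ankrd42 kept its peak in all 4 knockout libraries, Tmem243 in 2 and Plekhg1 in 1, with none in wild-type, and Gm4724 kept 2 and Siah3 1 of the 3 wild-type peaks, with none in knockout.

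**Figure D3:**
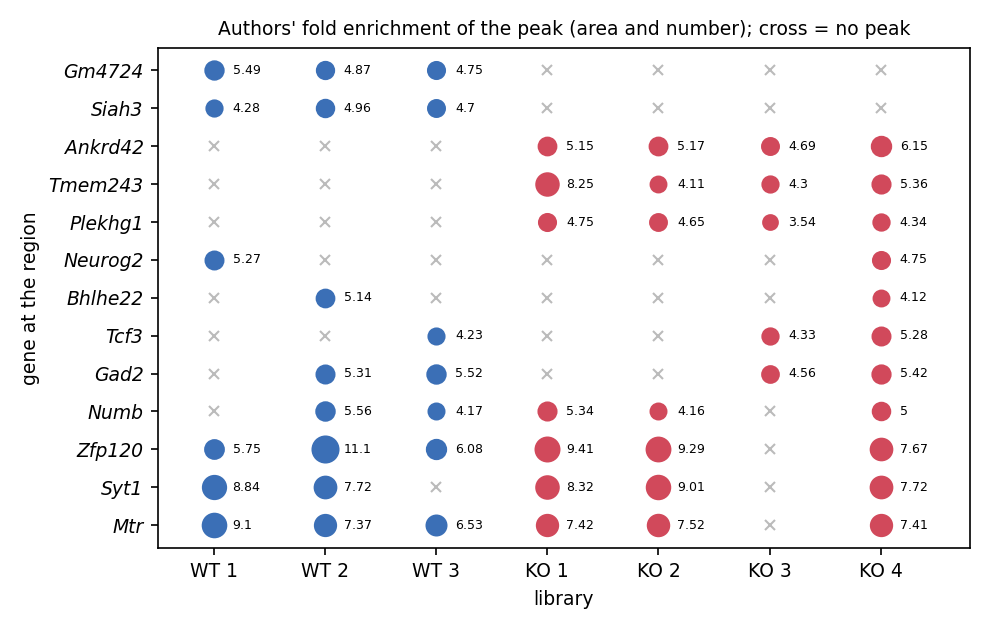
A selection of 13 named regions (y axis, gene symbols) in each of the 7 libraries (x axis); the area of a point and the number beside it give the authors' fold enrichment of the peak and a cross stands for no peak. Ankrd42, Tmem243 and Plekhg1 have points in the 4 knockout libraries alone, and Gm4724 and Siah3 in the 3 wild-type libraries alone.

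Of the 10 regions of highest fold enrichment percentile in their lists, 6 were called in every list except that of knockout library 3, and Csf3, Gm14410, Zdhhc5 and Syt1 in fewer. Gm20594, a predicted gene, had a region at its far end (chr6:79818146-79818346) with 19.4, 23.2 and 18.9 in wild-type and 21.3, 21.3 and 20 in knockout libraries 1, 2 and 4. Med30, a Mediator subunit, had 8.23, 10.3 and 8.69 in wild-type and 10.5, 9.06 and 9.85 in the same knockout libraries. For both, the values of the genotypes overlapped, and the missing list was that of knockout library 3, the shortest. Mtr, which makes methionine from homocysteine, had 9.1, 7.37 and 6.53 in wild-type and 7.42, 7.52 and 7.41 in those knockout libraries.

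Syt1, the calcium sensor that triggers transmitter release, was called in wild-type libraries 1 and 2 with 8.84 and 7.72, and in knockout libraries 1, 2 and 4 with 8.32, 9.01 and 7.72. Zfp120 and Zfp317, both of the zinc-finger family, were called in every list except that of knockout library 3, at 5.75 to 11.1 and 5.18 to 8.78. Emc2, a subunit of the membrane protein insertion complex of the endoplasmic reticulum, was called in the same 6 lists. Csf3, the gene of granulocyte colony-stimulating factor, stood apart: its region at chr11:98703274-98703477 had 13.4 in wild-type library 3, 7 in knockout library 3 and 19.6 in knockout library 4, and no peak in the other lists. Gm14410 and Zdhhc5, a palmitoyltransferase gene, complete the 10, with 4 and 3 calling libraries.

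Zinc-finger transcription factors, which bind DNA and include a large family of repressors, had the largest share of all genes with a region among the 26 classes set by gene symbol. It was 115 of 481 genes (23.9%), beside 9.24% of all protein-coding genes. Over the genes with an end away from other genes' ends, it was 24.5%, under the 25.4% of cytosolic ribosomal proteins and beside 9.65% of all such genes. By regions of any kind at an end, zinc-finger genes stood at 41%, under histone genes (50%) and cell cycle and replication genes (49.6%), among others. The 118 regions of zinc-finger genes were called at 61, 81.4 and 41.5% in wild-type and at 57.6, 49.2, 12.7 and 89% in knockout libraries. The means were 61.3 ± 19.9 (SD, n = 3) against 52.1 ± 31.4 (SD, n = 4), a gap smaller than the spread between libraries. Other regions at 1 gene end with the same numbers of callers were called at 54.3, 74.6 and 43.9% in wild-type and at 65.3, 46.1, 19.9 and 88.3% in knockout libraries. Of the 118, 40 leaned to knockout (33.9%), beside 41.2% among other regions at 1 gene end with the same numbers of callers. Genes with another zinc-finger gene as neighbour had a region in 69 of 247 cases (27.9%) and those without in 46 of 234 (19.7%). Their 72 and 46 regions leaned to knockout in 25% and 47.8% of cases. That lean depends on the number of callers and was not matched for this split. The share of zinc-finger genes with a region was 18 of 43 on chromosome 13, 21 of 51 on chromosome 17 and 27 of 105 on chromosome 7. It was 2 of 38 on chromosome 4 and 2 of 26 on each of chromosomes 5 and 11.

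Zinc-finger genes often lie in clusters of near-identical copies, to which reads of one copy can align. A promoter window with at least 90% identity over at least 150 bases to that of another gene was found for 69 of 1348 windows under the regions (5.12%), for 17 of 99 at zinc-finger genes (17.2%) and for 34 of 56 at predicted genes. Gm14410 and Zfp931 each had 25 such partner genes, so calls there are uncertain as to the copy. Among single zinc-finger genes, Klf5 was called in all wild-type libraries (6.62, 6.53 and 5.31) and in knockout library 4 (6.39), and Zfp260 also in all wild-type libraries and knockout library 4. Klf7, a factor of neuronal differentiation, was called in knockout libraries 1, 2 and 4 (5.11, 3.99 and 4.42) and in no wild-type library. Calls in 3 knockout and no wild-type libraries were found for 37 regions at 1 gene end (1.92%), beside 2.26% of the other shared regions. Calls in all wild-type libraries and 1 knockout library made up 1.5%, beside 1.23%. Genes of these patterns, here and below, were picked for their genotype difference, so their calls are no result about regions at 1 gene end.

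Genes of growth and division followed. Cytosolic ribosomal proteins had a region at 18 of 80 genes (22.5%), kinesins, dyneins and centrosome genes at 19 of 89 (21.3%) and cell cycle and replication genes at 26 of 123 (21.1%). Among ribosomal genes, Rps21 was called in wild-type library 1 and all knockout libraries, and Rps12 in wild-type libraries 1 and 2 only. The 18 ribosomal regions were called at 66.7, 44.4 and 16.7% in wild-type libraries 1 to 3 and at 33.3, 38.9, 33.3 and 94.4% in knockout libraries 1 to 4. Other regions at 1 gene end with the same numbers of callers were called at 42.5, 65.3 and 34.6% and at 53.5, 32.7, 15.2 and 84%. E2f8, a repressor of the E2F family, was called in knockout libraries 1, 2 and 4 (5.16, 4.39 and 3.73), and Orc2, part of the origin recognition complex, in all wild-type libraries (5.16, 5.59 and 3.66) and knockout library 4 (3.56). Cep126 of the centrosome was called in knockout libraries 1, 2 and 4 and in no wild-type library.

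Of the general machinery of the nucleus, chromatin remodellers had a region at 7 of 41 genes (17.1%) and RNA polymerase, Mediator and general factors at 17 of 100 (17%). The latter class had 17 regions, of which 10 leaned to knockout (58.8%), beside 35.3% with the same numbers of callers. This was the widest gap among the classes matched in this way, and classes lay on both sides. Kinesins, dyneins and centrosome genes stood at 52.6% beside 40.7%, and protein kinases at 26.7% beside 34.3%. Taf15, Polr3e and Gtf3c6, examples of the class with RNA polymerase, were each called in 2 knockout libraries and no wild-type library, but not in the same 2. That pattern made up 9.48% of the regions at 1 gene end and 10.5% of the other shared regions. DNA repair genes had a region at 7 of 53 (13.2%), among them Xrcc5, the Ku80 subunit, with 6.04, 4.18 and 5.77 in knockout libraries 1, 2 and 4 and no wild-type peak. Histone genes stood at 10 of 80 (12.5%), splicing and hnRNP genes at 10 of 88 (11.4%), translation factors at 7 of 68 (10.3%) and histone-modifying enzymes at 6 of 70 (8.57%). Prmt5, an arginine methyltransferase, was called in every list except that of knockout library 3, and the histone gene H2aj in wild-type library 2 and all knockout libraries.

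Protein kinases had a region at 15 of 119 genes (12.6%), vesicle traffic genes at 21 of 179 (11.7%) and ubiquitin and proteasome genes at 33 of 304 (10.9%). Vamp4, a SNARE of vesicle fusion, and Usp1, a deubiquitinase, were each called in knockout libraries 1, 2 and 4 and no wild-type library. Among lists of 3285 peaks each, Vamp4, Usp1 and E2f8 kept no peak in any library, Klf7, Cep126 and Sema3c kept 1 knockout peak and Xrcc5 kept 2. Of the genes with 3 wild-type peaks and 1 knockout peak, Klf5 and Col11a1 kept all 4, and Zfp260 kept 1 wild-type peak, Orc2 and Cdh20 2, without a knockout peak. Genes of mitochondria were close to or under the share of all genes, with 8 of 102 for the respiratory chain (7.84%) and 6 of 78 for the mitochondrial ribosome (7.69%). Regions of any kind at an end were more common there, at 48% and 34.6% beside 24.1% of all genes. Atp5b, the beta subunit of ATP synthase, had 4.48, 5.25 and 5.95 in wild-type libraries and 4.51 and 6.34 in knockout libraries 2 and 4. Solute carriers stood at 32 of 362 (8.84%) and TMEM genes at 19 of 231 (8.23%).

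Genes of neuronal and tissue function were fewer. Transmitter receptors had a region at 6 of 76 genes (7.89%), cadherins, collagens, laminins and integrins at 12 of 173 (6.94%), developmental transcription factors at 13 of 230 (5.65%) and ion channels at 9 of 168 (5.36%). Axon guidance genes stood higher, at 8 of 67 (11.9%), and 6 of their 9 regions leaned to knockout (66.7%). Their median number of callers was 3, at which 64.3% of the regions at 1 gene end leaned to knockout. Over all 1931 regions the share was 41.6%, but it depends on the number of callers and was not matched for this class. Sema3c, a secreted guidance cue, had 4.37, 5.22 and 4.54 in knockout libraries 1, 2 and 4 and no wild-type peak. Col11a1, a fibrillar collagen, had 5.3, 5.46 and 5.33 in wild-type and 5.48 in knockout library 1, and Cdh20, a cadherin, was called in the same 4 libraries. Predicted and RIKEN genes stood at 82 of 1403 (5.84%). Keratins had 1 region among 109 genes, at Krtap16-3, and chemosensory receptors 1 among 1511, at Vmn2r29.

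**Figure D4:**
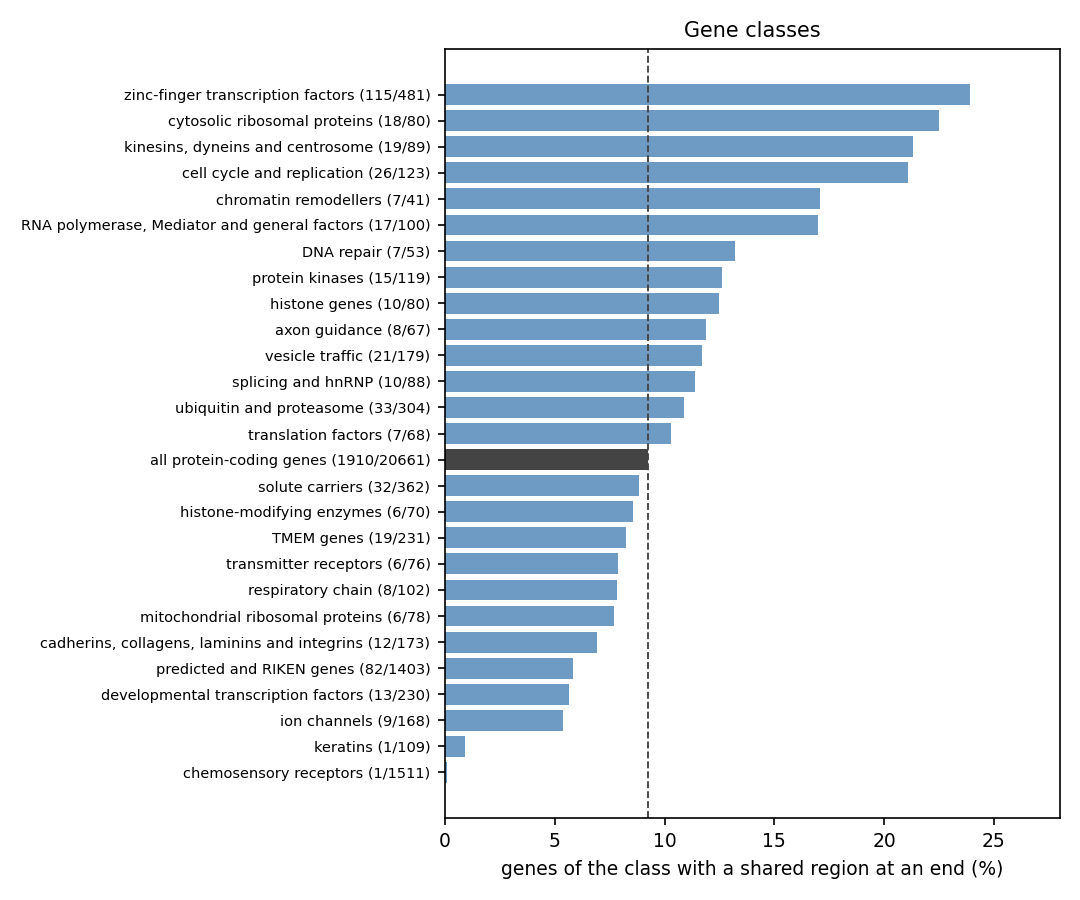
Share of the genes of each symbol class that have a shared region at 1 gene end (x axis, %), with the dark bar and the dashed line at the 9.24% of all protein-coding genes. Zinc-finger genes stand highest at 23.9%, and keratins and chemosensory receptors stand at or near 0.

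Lists of genes drawn from textbook knowledge of the cortex are short, and their shares ran from 0 to 28.6%, on both sides of the 9.24% of all protein-coding genes. Of the radial glia markers, 8 of 20 had a region of any kind at an end, in 1 or more libraries (40%, beside 24.1% of all genes), and 1 had a shared region at 1 gene end (5%): Fabp7, a lipid-binding protein of radial glia, with 2 such regions. Apart from Fabp7, the markers among these 8 had only regions called in 1 library, so the 40% rests mostly on calls of a single list. Intermediate progenitors had 1 of 12, Neurog2, a proneural factor called in wild-type library 1 (5.27) and knockout library 4 (4.75). Excitatory neuron genes had 3 of 17 (17.6%), Foxp2, Slc17a6 and Rorb, and ventral telencephalon and interneuron genes had 4 of 14 (28.6%), among them Gad2, Gsx1 and Isl1. By regions of any kind at an end, intermediate progenitors stood at 25%, excitatory neuron genes at 29.4% and ventral telencephalon and interneuron genes at 28.6%. Oligodendrocyte genes (6), microglia and blood genes (9) and endothelial genes (7) had no region of any kind at an end, and of 10 meningeal genes Dcn had one, called in knockout libraries 1 and 4. The part that cells of another type had in the calls was not tested beyond these counts.

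The proneural and neurogenic bHLH list had 4 of 17 genes with a region. Neurog2 and Bhlhe22 were each called in 1 library of each genotype, and Tcf3, a dimer partner of proneural proteins, in wild-type library 3 and knockout libraries 3 and 4. The Notch list had 4 of 27, namely Hey2, Maml1, Numb and Mib1. Numb, an inhibitor of Notch, had 5.56 and 4.17 in wild-type libraries 2 and 3 and 5.34, 4.16 and 5 in knockout libraries 1, 2 and 4, so the genotypes overlapped. Maml1, a Notch coactivator, was called in all wild-type libraries and in every knockout library but the second. The Wnt list had 2 of 28, Gsk3b and Fzd8. Gsk3b, a kinase of the beta-catenin destruction complex, was called in every list except that of knockout library 3.

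Polycomb genes are the family to which the targeted gene is related. The PRC1 and MBT list had 1 of 30 (3.33%, beside 9.24% of all genes), Phc1, a PRC1 subunit called in knockout libraries 1 and 4 (3.96 and 3.95). The PRC2 list had 0 of 11, and lists this short give no firm share. Regions of any kind at an end, including those called in 1 library or shared by neighbouring genes, were found for 6 of the 30 (20%) and 5 of the 11 (45.5%), beside 24.1% of all genes. Apart from that of Phc1, these regions of both lists were each called in 1 library only.

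Promoter sequence was not used by the rule. The RefSeq promoter table gives windows from 250 bases before to 50 bases after a start, and 1348 regions overlapped such a window of their gene. Median GC was 60.3% in these windows and 57% in all 20084 windows, and the median CpG ratio was 0.78 against 0.586. A CpG ratio over 0.6 was found in 77.1% of them and in 48.9% of all windows, while windows at zinc-finger genes with a region had it in 44.4%. At regions called in 1 library and in all 7 at 1 gene, the share over 0.6 was 80.8% and 76.2%. The gap from all windows was thus not particular to regions called in 2 to 6 libraries. Among windows called by each library the share over 0.6 was 76.4, 73.5 and 77.1% in wild-type and 73.3, 73.4, 82.8 and 77.7% in knockout.

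CCAAT, bound by NF-Y, was found on either strand in 791 of the 1348 windows (58.7%) and in 38.1% of all windows. Over regions at 1 gene called in 1 to 7 libraries, the share was 46.8, 50.3, 57.8, 60.5, 66.4, 69.8 and 73.8%, higher at each step. It was 57.4% against 36.4% among windows with a CpG ratio over 0.6 and 63.1% against 39.7% among the others, so the share at 2 to 6 callers was above that of all windows at both CpG levels. The rise with callers held from 1 library (45.6%) to all 7 (79.6%) at a ratio over 0.6, but not among the others, at 52% for 1 library and 55.2% for the 29 windows called in all 7. More than 1 match occurred in 33.5% of the windows, as at Atp5b and Numb, and in 12.8% of all windows. The median match lay 79 bases before the start (−79). Regions with more callers were also wider, from a median of 196 bp at 2 callers to 289 bp at 6, and the part of width in this share was not tested, although the window itself was the same length for all.

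By library, CCAAT was found in 62.9, 60.6 and 63.7% of the windows called in wild-type and in 60.6, 61.3, 62.2 and 60.7% of those called in knockout, so the genotypes overlapped. The E-box core CANNTG, which proneural bHLH proteins bind, was less common in the windows than in all windows, at 59.3% against 68.7%. Among windows with a CpG ratio over 0.6 that was 55% against 58.4%. Its variants CAGCTG and CAGATG, both also counted as CANNTG, stood at 13.6% against 15.6% and 10.3% against 14.6%. By library, CANNTG stood at 59, 59.3 and 59% in wild-type and at 59.8, 57.1, 56.7 and 58.8% in knockout. Knockout library 3, which holds the fewest windows, had the lowest value.

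Of the other motifs, each searched on both strands, GGGCGG (bound by SP and KLF factors) was found in 68.2% of the windows and 47% of all, and CCGGAAG (ETS factors) in 18.8% and 11.9%. Matches were also more common for AANATGGCG (YY1), at 6.01% and 3.12%, for CTACAANTC at 5.19% and 1.92%, for CGCATGCGC (NRF1) at 4.67% and 2.38%, and for TGACGTCA (CREB and ATF factors) at 4.67% and 2.3%. AGNNGGCGC, from the core bound by CTCF, stood at 11.4% and 9.47%, and GTTNCCATG (RFX factors) at 1.93% and 1.68%. TATAAA (5.79% and 12.7%) and TGANTCA (Fos and Jun, 3.78% and 7.06%) were less common than in all windows. Regions called in 1 library and in all 7 went the same way. There GGGCGG stood at 69.7% and 61.5%, AANATGGCG at 5.48% and 4.1%, and TATAAA at 6.77% and 4.92%. Among windows with a CpG ratio over 0.6, GGGCGG stood at 75% against 74.3% and CCGGAAG at 20.3% against 19.9%. TATAAA stood at 5.29% against 5.57% there, so these gaps were small at that CpG level. Among windows with a lower ratio the shares were 45.3% against 20.9%, 13.9% against 4.17% and 7.44% against 19.5%. The remaining motifs of this paragraph were not split by CpG ratio. Over 1 to 7 callers CCGGAAG stood at 24.8, 18.1, 20.8, 21, 14.7, 19.8 and 19.7%, highest at 1 library and without a steady order after it. AGNNGGCGC was found in 16.4% of windows at 1 caller, 12.6% at 2 or 3, 10.1% at 4 to 6 and 6.56% at 7, and CGCATGCGC in 5.26, 5.33, 3.9 and 0.82%, so both were least common at 7 callers. CTACAANTC stood at 4.08, 4.78, 5.68 and 11.5% over the same steps.

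**Figure D5:**
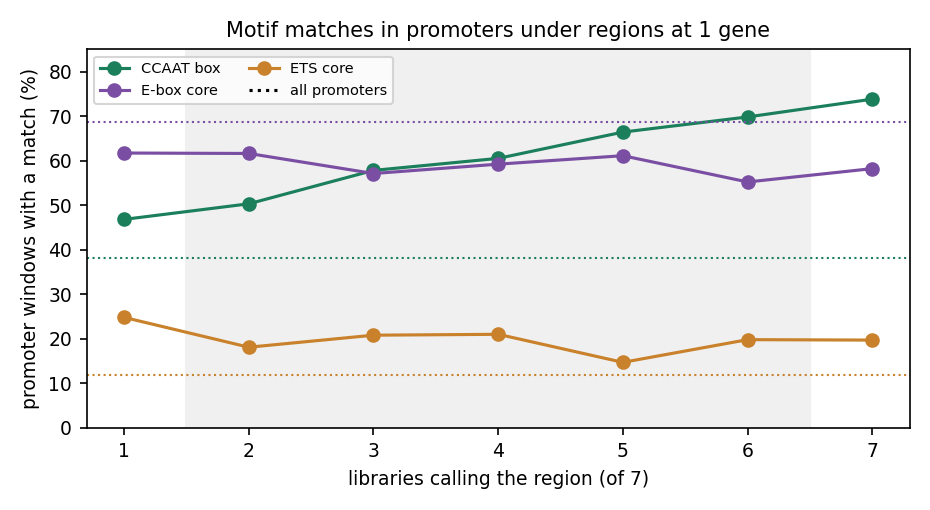
Share of promoter windows with a motif match (y axis, %) by the number of libraries calling the region (x axis, 1 to 7), for regions at 1 gene. Lines show the CCAAT box (CCAAT), the E-box core (CANNTG) and the ETS core (CCGGAAG), dotted lines the share of each in all promoter windows, and the shaded span covers 2 to 6 libraries. CCAAT runs from 46.8% at 1 library to 73.8% at 7.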

How the data were processed

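Open chromatin was tagged with the Nextera kit that the labels' protocols name. Tools named in the submitters' processing notes are MACS2, deepTools 3.3.0, SAMtools 1.9, Bowtie2 2.3.5.1, FastQC 0.11.8 and CASAVA 1.9, and the build is GRCm38. No source used here gives their settings or a shift of reads for the transposase. Per library, the authors deposited 1 list of broad peaks. Each peak carries a deposited fold enrichment (a ratio), a deposited −log10 p, a deposited −log10 q and a deposited score. Fold served to describe and rank peaks within a list, −log10 q to rank and filter them, and p and score were not used.

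Peaks were merged and called per library in Python 3.11.15 (pandas 2.3.3, scipy 1.17.1, statsmodels 0.14.6). Gene spans, strand and promoter windows are from RefSeq GRCm38.p6. Strand was known for 16456 of 20661 genes. Similar promoters were found with BLAST 2.17.0. Merging and gene assignment were checked on made-up intervals. Counts of separated regions and relative calling were checked on calls drawn at random at each library's calling rate. The exact test was not part of these checks. Nothing shows that libraries of a genotype came from separate embryos, so p-values hold for these libraries only. The exact test uses the number of calling libraries per genotype and measures no spread between libraries.

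The regions, gene classes and motifs were chosen with earlier results of these data known, so class shares and genotype counts carry no test. Genes named are, by rule, those of the regions called in all libraries of 1 genotype and none of the other, up to 3 per class with the largest genotype difference, the 10 regions of highest fold percentile and genes with 3 regions or more. Hey2, Zfp931 and the second Fabp7 region fall outside that rule and were named after their values were seen. A few genes that the rule takes are not reported here.

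Alternatives covered peak q, the window, overlap, number of callers, the X chromosome, list length, each library left out and a replicate block. The share of other regions leaning to knockout under each alternative was added after the data were seen.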

Additional observations from a re-analysis of the deposited data

Results flagged for a closer look

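In 2 of 27 groups of 4 knockout libraries examined, 1 library stood apart from the other 3, where chance gives about 1 in 20. The GC box GGGCGG was found in 72.3% of the promoter windows called in knockout library 3, above the other knockout libraries. The 18 regions at cytosolic ribosomal protein genes were called at 94.4% in knockout library 4, against 33.3, 38.9 and 33.3% in knockout libraries 1 to 3. Other regions at 1 gene end with the same numbers of callers were called at 84% in knockout library 4 and at 53.5, 32.7 and 15.2% in knockout libraries 1 to 3, so most of the height in knockout library 4 is shared by the other regions. Knockout library 3 has the shortest list, and the part of list length in its GC box share was not tested.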

How the results depend on the processing

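Of 98 alternative values, 63 stayed close to the reported one and 35 moved. At a −log10 q of at least 2, 6 regions were wild-type-only and 45.2% leaned to knockout. At a −log10 q of at least 5, 271 regions remained, 1 wild-type-only and 0 knockout-only, relative calling (knockout minus wild-type) was −0.284 and 51.3% leaned to knockout. Taking 3 to 5 callers gave 1033 regions with 55.3% leaning to knockout, and lists of equal length gave 813 regions with 39.1%. Wild-type-only regions numbered 4 with X included, 7 where a library's peaks had to cover 50% of the merged region and 1 with a window of 500 bp. The start share was 96.8% with 500 bp and 91.1% with 2.5 kb.

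Leaving out each library in turn gave 1439 to 1839 regions, 3 to 24 wild-type-only and 5 to 26 knockout-only, relative calling of −0.13 to 0.0104, start shares of 94.9 to 95.8% and knockout leaning of 16.2 to 42.5%. With fewer libraries a smaller set must agree for a region to be separated, and the equal shares at which a region leans to neither genotype change by construction. Each of the 7 libraries moved the count of knockout-only regions by over 1.5 times, and the same held for wild-type-only regions except without knockout library 3 (3). The share leaning to knockout lay under that of other shared regions with the same numbers of callers in all 16 settings. Same-numbered libraries of the genotypes deviated together only weakly (correlations of 0.0228, 0.0309 and 0.0231 across regions), and other pairs ranged from −0.0789 to 0.108. The labels do not say whether the numbers mark pairs, and correlations of calls cannot settle it. With the replicate block the difference in relative calling was −0.0712. The cause of the other shifts was not tested. Without read counts, no interval could be set on a single call.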
